A study of Mus musculus with 4 samples.

Results

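The cytochrome P450 genes were taken as the genes whose array symbol has the form Cyp, a family number, a subfamily letter and a gene number, without pseudogenes, and 90 of the 22180 genes measured met this rule. Where a gene had more than 1 probe set, which was so for 4 of the 90, its brightest probe set on average stood for it. The study set stomachs of 1-year-old FVB mice of the genotype Hdc+/+ (2 samples) against stomachs labelled Hdc-/- (2 samples), with total RNA on 1 Affymetrix array each. Hdc encodes histidine decarboxylase, which makes histamine, and the labels do not say how the allele was made. Per the labels, all mice shared 1 diet and light cycle, no drug is named for any group, and the tissue was rinsed and cut into small pieces before extraction. Arrays are called by their labels, as Hdc+/+ arrays 1 and 2 and Hdc-/- arrays 1 and 2, and all values are on the log2 scale.

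Cytochrome P450 enzymes are haem proteins that insert an oxygen atom into their substrates, with electrons passed on by cytochrome P450 reductase and cytochrome b5 in the endoplasmic reticulum or by adrenodoxin in mitochondria. Families 1 to 3 oxidise drugs, plant compounds and carcinogens and also make signalling lipids from arachidonic acid, family 4 hydroxylates fatty acids and eicosanoids, and further families make bile acids and steroid hormones or turn over vitamins A and D. Most members of families 2 and 3 are known chiefly from the liver, while some, such as Cyp2s1 and Cyp2c65, are known from surface epithelia of the gut.

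The tissue label was checked against the gastric marker genes Gkn1, Atp4a and Pgc, which were bright on every array. The surface mucous cell gene Gkn1 read between 12.81 and 13.01, the proton pump gene Atp4a between 10.42 and 11.08 and the pepsinogen gene Pgc between 11.94 and 12.95. Other genes of the gastric marker lists were dim, such as Lipf (2.36 to 2.73) and Bhlha15 (4.16 to 4.77) of the chief cell list. Hdc, the targeted gene, read 3.99 and 3.82 on the Hdc+/+ arrays and 3.77 and 4.06 on the Hdc-/- arrays, so it did not check the genotype labels and each direction below rests on them. The titles number biological replicates without naming animals, and a p-value here reflects only how far these 4 samples spread, which may be partly technical. With 2 samples a group an exact permutation test of 1 gene cannot give a p below 0.333, and single genes were therefore tested by limma, which pools the spread over all 22180 genes.

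Many P450 genes read lower on the Hdc-/- arrays, but none passed the test over all genes. At a Benjamini-Hochberg adjusted p under 0.05 from limma, 0 of the 90 were called lower, against 0% of all genes, and 0 were called higher, against 0.00451%. At an unadjusted p under 0.05, 35 of the 90 (38.9%) read lower, against 4.87% of all genes, and 1 (1.11%) read higher, against 3.68%. These shares of all genes also stand beside each later count for a group, cluster or list of genes at this threshold. The smallest adjusted p of a member was 0.221. The median difference over the 90, Hdc-/- minus Hdc+/+, was -0.40, against 0.02 over all genes. Both Hdc-/- values lay below both Hdc+/+ values for 42 members (46.7%, against 17.6% of all genes) and above them for 8 (8.89%, against 21.5%). A difference of at least 1 on the log2 scale was seen in 32 members (35.6%, against 2.11% of all genes), all of them lower, and in 0 members in the higher direction (against 0.649% of all genes). Of these, 30 (33.3%, against 1.68% of all genes) also had an unadjusted p under 0.05. The member just inside that bound was Cyp3a11 (-1.08) and the member just outside it was Cyp2c40 (-0.91). The count lower at an unadjusted p under 0.05 was 21 without Hdc-/- array 2.

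The largest differences were in families 1 to 3, taken here without Cyp2r1, which is counted with the vitamin genes. Of these 57 members, 27 read lower at an unadjusted p under 0.05 and 0 read higher, with a median of -0.72. Cyp2c29, a liver enzyme that epoxidises arachidonic acid, read 5.86 and 8.60 on the Hdc+/+ arrays and 2.50 and 2.68 on the Hdc-/- arrays. Its difference was -4.65 (SE 0.83, n = 2 per group, limma adjusted p = 0.285). Cyp2b9, a phenobarbital-type P450 of mouse liver, read 5.98 and 8.54 against 2.74 and 2.87, a difference of -4.45 (SE 0.78, limma adjusted p = 0.280), or 21.9-fold. In both genes the groups lay far apart, and the Hdc+/+ arrays also lay far from each other. Their Hdc-/- values lay below the first quartile of all genes, which was 3.44 and 3.52 on Hdc-/- arrays 1 and 2. The same held on these arrays for 17 and 15 of the 32 members lower by at least 1.

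Cyp2e1, the ethanol- and acetaminophen-oxidising enzyme of the liver centre, read 7.68 and 9.71 on the Hdc+/+ arrays and 3.88 and 5.44 on the Hdc-/- arrays. The difference was -4.03 (SE 0.78, n = 2 per group, limma adjusted p = 0.305), or 16.4-fold, and both groups were spread by more than 1 on the log2 scale. Cyp2j5, an arachidonic acid epoxygenase of liver and kidney, read 5.73 and 8.22 against 3.10 and 2.89, a difference of -3.98 (SE 0.76). The next members by size were Cyp2c69 (-3.89, SE 1.04), Cyp3a16 (-3.57, SE 1.22), Cyp2d13 (-3.39, SE 0.55) and Cyp2a12 (-3.38, SE 0.82). All 4 were highest on Hdc+/+ array 2, and Cyp3a16 was the most uneven, with 3.21 on Hdc+/+ array 1 and 7.27 on array 2 against 1.81 and 1.53 on the Hdc-/- arrays. Cyp1a2, which oxidises caffeine and aromatic amines in the liver, differed by -2.00 (SE 0.48). Cyp2f2, known from airway club cells and liver, read 6.17 and 8.42 against 4.94 and 4.94, a difference of -2.35 (SE 0.69). Of 6 airway club cell markers, 0 read lower and 2 higher at an unadjusted p under 0.05, with summed signals of 84.8 and 74.9 linear units against 114 and 108, and their part in the Cyp2f2 difference was not tested.

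Some of these probe sets may share signal between close relatives. Within each of the Cyp2c, Cyp2d, Cyp2a and Cyp3a subfamilies some genes are close in sequence, so a value printed for 1 of these may hold signal of another. The array annotation gives several symbols to 6 further probe sets with a P450 symbol. These are of Cyp2c, Cyp3a and Cyp4a genes and of Cyp4v3 with Klkb1, with no Cyp2d or Cyp2a gene. The probe set of Cyp3a11 alone, the major Cyp3a enzyme of mouse liver, read 3.74 and 5.47 against 3.36 and 3.68 (difference -1.08, SE 0.55). A probe set annotated to it together with Cyp3a41a, Cyp3a41b and Cyp3a44 read 8.46 and 10.83 against 3.80 and 3.67.

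**Figure D1:**
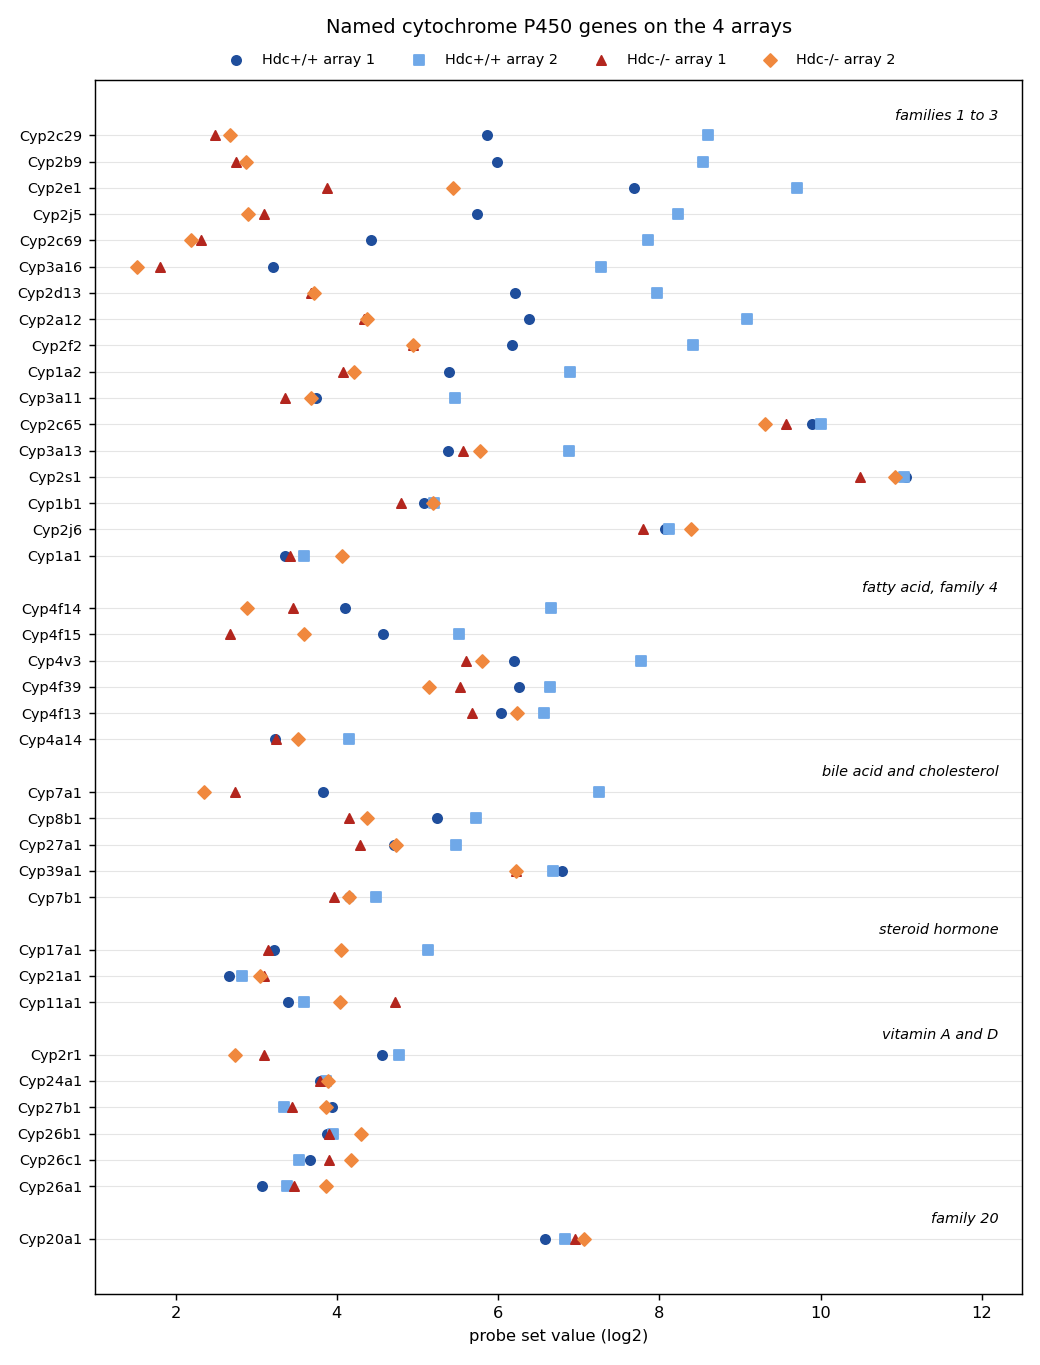
Log2 probe set values (x axis) of 38 P450 genes (y axis, grouped by role) on each of the 4 arrays, blue for Hdc+/+ and red or orange for Hdc-/-. The upper rows of families 1 to 3 have Hdc+/+ array 2 far to the right, Hdc+/+ array 1 between and both Hdc-/- arrays to the left, as Cyp2c29 with 8.60, 5.86, 2.50 and 2.68, whereas Cyp2s1, Cyp2j6 and Cyp24a1 have all 4 arrays close together.

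Promoters are shown for 4 members that contrast in the size of their difference. Each is the 250 bases before the transcription start from RefSeq, assembly GRCm38.p6, 5′ to 3′ on the strand of the gene. Cyp2c29 (chr19:39286835-39287084, plus strand) and Cyp2e1 (chr7:140763569-140763818, plus strand) stand for the large differences. Cyp2r1 (chr7:114562973-114563222, minus strand) is the member with the smallest p, and Cyp2s1 (chr7:25816526-25816775, minus strand) is a bright gastric member with a small difference. Capitals mark each TATAAA, on either strand, and each CG dinucleotide.
Cyp2c29: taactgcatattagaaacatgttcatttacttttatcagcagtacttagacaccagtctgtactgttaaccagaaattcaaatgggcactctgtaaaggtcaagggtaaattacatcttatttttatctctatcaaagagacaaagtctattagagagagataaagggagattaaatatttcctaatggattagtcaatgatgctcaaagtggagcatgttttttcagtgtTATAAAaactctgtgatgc
Cyp2e1: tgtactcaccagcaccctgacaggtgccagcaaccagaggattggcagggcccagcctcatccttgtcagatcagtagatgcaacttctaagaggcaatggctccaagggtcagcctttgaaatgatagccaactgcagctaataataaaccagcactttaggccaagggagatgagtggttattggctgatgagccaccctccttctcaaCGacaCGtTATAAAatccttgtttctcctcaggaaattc
Cyp2r1: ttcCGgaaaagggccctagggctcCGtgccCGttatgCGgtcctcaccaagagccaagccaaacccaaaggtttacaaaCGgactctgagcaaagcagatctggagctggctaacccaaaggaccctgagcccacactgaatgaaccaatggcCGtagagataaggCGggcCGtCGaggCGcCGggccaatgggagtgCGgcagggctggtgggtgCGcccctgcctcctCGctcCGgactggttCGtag
Cyp2s1: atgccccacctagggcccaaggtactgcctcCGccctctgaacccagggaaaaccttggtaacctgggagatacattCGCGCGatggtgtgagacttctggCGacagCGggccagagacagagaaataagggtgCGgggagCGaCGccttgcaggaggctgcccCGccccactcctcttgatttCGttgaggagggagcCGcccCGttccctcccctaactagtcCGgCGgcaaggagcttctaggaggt
The Cyp2c29 and Cyp2e1 windows hold TATAAA beginning 19 and 31 bases before the start and 0 and 2 CG dinucleotides. The Cyp2r1 and Cyp2s1 windows hold no TATAAA and 16 and 15 CG dinucleotides. Other members did not all follow these examples, as the window of Cyp2b9 (-4.45) holds no TATAAA and that of Cyp2c65 (-0.51) does.

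RefSeq promoter windows were matched for 70 of the 90 members, 78 windows in all, since some genes have several starts. TATAAA, searched on both strands, was in 30.8% of them, against 12.4% of all 32851 windows of the same length. It was in 48.4% of the 31 windows of members lower by at least 1 on the log2 scale and in 19.1% of the other 47. The nuclear receptor motif AGGTCA was in 29.0% and 19.1% of these same sets and in 14.0% of all windows. The HNF1 motif GTTAAT was in 16.1% and 6.38%, against 6.43% of all windows, and the aryl hydrocarbon receptor core GCGTG was in 12.9% and 25.5%, against 28.2%. The median number of CG dinucleotides was 2 in the members' windows and 6 in all windows. No string contains another of the 4. Related genes are not independent of each other, so these shares are a description of the letters and carry no test.

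The differences were uneven within gene clusters, the groups of neighbouring P450 genes in the GRCm38.p6 gene table with under 1 Mb between neighbours. Of the 90 genes, 61 lay in 7 clusters of at least 5. In the Cyp2c cluster of 13 genes, 11 read lower at an unadjusted p under 0.05 and the median was -1.50. Its members Cyp2c55 and Cyp2c65 differed by -0.25 and -0.51. The cluster of Cyp2a, Cyp2b, Cyp2f, Cyp2g, Cyp2s and Cyp2t genes had 6 of 13 lower and a median of -0.68, and ran from Cyp2b9 (-4.45) to Cyp2b23 (-0.06), with Cyp2s1 at -0.34. In the Cyp2j cluster Cyp2j5 stood alone at -3.98, and the other 6 lay between -0.19 and 0.30. The Cyp2d cluster had 4 of 9 lower (median -0.64), the Cyp3a cluster 2 of 6 (median -0.90), the Cyp4f cluster 3 of 8 (median -0.47) and the Cyp4a, Cyp4b and Cyp4x cluster 0 of 5 (median -0.12). Of the 29 genes elsewhere, 8 read lower, with a median of -0.01.

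**Figure D2:**
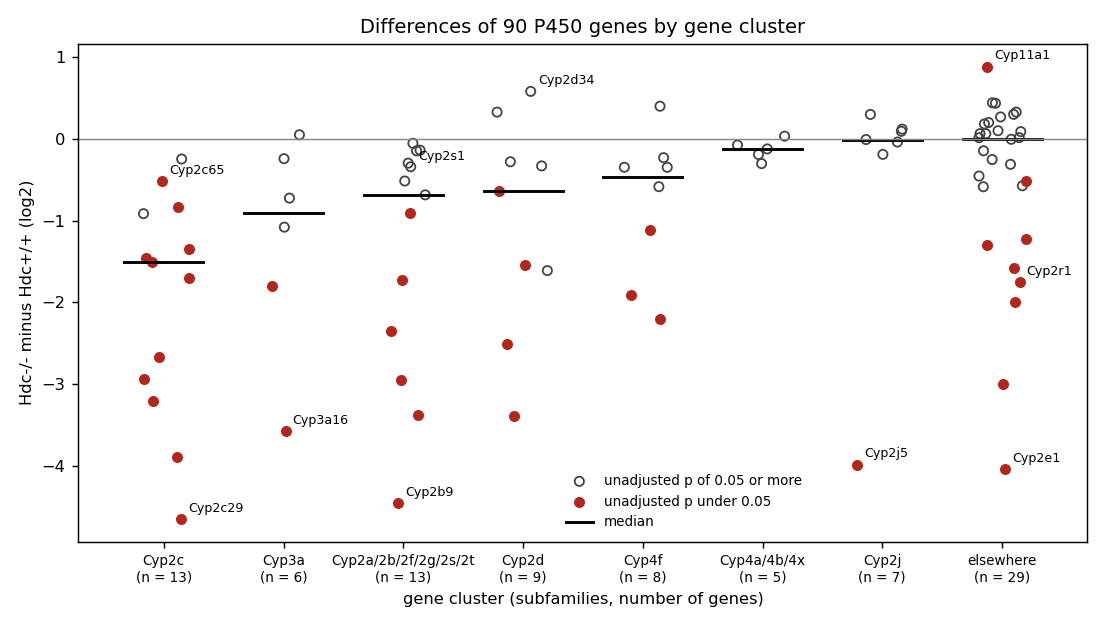
Difference of each of the 90 P450 genes (y axis, Hdc-/- minus Hdc+/+, log2) by gene cluster (x axis), with filled points at an unadjusted limma p under 0.05 and a bar at the median of each cluster. The Cyp2c cluster has the lowest median (-1.50), and Cyp2j5 (-3.98) lies apart from the other 6 Cyp2j genes.

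The Hdc+/+ arrays differed from each other in the same genes. Wild-type-labelled array 2 read higher than array 1 by at least 1 on the log2 scale for 30 of the 90 members, and array 1 read higher by that much for 0. Of the 32 members lower by at least 1 on the Hdc-/- arrays, 31 read higher on Hdc+/+ array 2 than on array 1, and 25 of them by at least 1. The Hdc-/- arrays lay at least 1 apart for 4 members, Cyp2b10, Cyp2b23, Cyp2d34 and Cyp2e1. The median difference of the 32 members was -2.10 over all arrays, -1.39 without Hdc+/+ array 2 and -2.98 without Hdc+/+ array 1, and 22 of them were still lower by at least 1 without Hdc+/+ array 2. Cyp3a16, for instance, differed by -5.60 without Hdc+/+ array 1 and by -1.54 without Hdc+/+ array 2. A fit with 1 of these arrays left out takes its spread from the Hdc-/- arrays alone. It leaves out the gap between the Hdc+/+ arrays, so members passing the adjusted test without Hdc+/+ array 1 are not counted here.

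Liver markers read lower on the same arrays. Of 23 hepatocyte markers, 22 read lower at an unadjusted p under 0.05 and 0 higher, with a median of -3.35. Serum albumin, Alb, read 11.17 and 12.48 on the Hdc+/+ arrays and 4.90 and 4.71 on the Hdc-/- arrays. The summed hepatocyte signal was 4769 and 15489 linear units on Hdc+/+ arrays 1 and 2 and 530 and 713 on the Hdc-/- arrays, and 22 of the 23 markers were higher on Hdc+/+ array 2 than on array 1. On the Hdc-/- arrays the markers read between 2.11 and 8.31. Over the same arrays the summed P450 signal was 5904 and 10643 against 4044 and 4571. What liver tissue in the samples gave to the P450 differences was not tested, and in bulk tissue fewer cells of a type cannot be told apart from less RNA per cell.

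**Figure D3:**
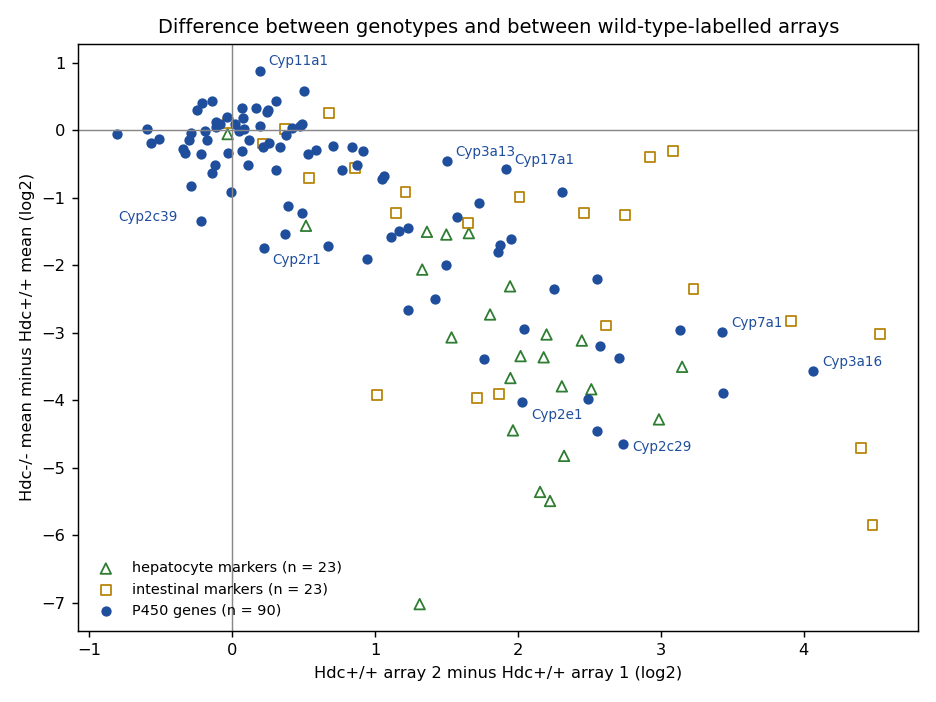
Each point is a gene, with Hdc+/+ array 2 minus array 1 on the x axis and the Hdc-/- mean minus the Hdc+/+ mean on the y axis, both log2, for 90 P450 genes, 23 hepatocyte and 23 intestinal markers. P450 genes with large differences on the y axis lie to the right among the hepatocyte markers, and Cyp2r1 and Cyp2c39 lie near 0 on the x axis, where both axes use the Hdc+/+ arrays.

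Intestinal, pancreatic and adipose markers were also uneven. The counts that follow are at an unadjusted p under 0.05, where 4.87% of all genes read lower and 3.68% higher. The intestinal list had 8 of 23 genes lower at an unadjusted p under 0.05 (median -1.23), and its summed signal was 2549 and 12001 on the Hdc+/+ arrays against 1336 and 1103. The pancreatic acinar list had 0 of 12 lower, and its sum of 7404 on Hdc+/+ array 2 stood apart from 317 on array 1 and from 469 and 499 on the Hdc-/- arrays. The adipocyte list had 6 of 13 lower and 1 higher, with sums of 1754 and 2665 against 894 and 1160. The squamous forestomach list had 12 of 25 lower and 0 higher, with sums of 2993 and 2756 against 1454 and 1661. By contrast the parietal sums overlapped, at 11871 and 9838 against 11824 and 10822, though 3 of 19 parietal genes read higher and 0 lower. The surface pit sums were 58797 and 58220 against 47158 and 54523, with 2 of 13 genes lower and 0 higher. The chief cell list had 4 of 10 genes higher and 0 lower, the macrophage list 5 of 14 higher and 0 lower, and the fibroblast and endothelial list 4 of 14 lower and 0 higher.

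**Figure D4:**
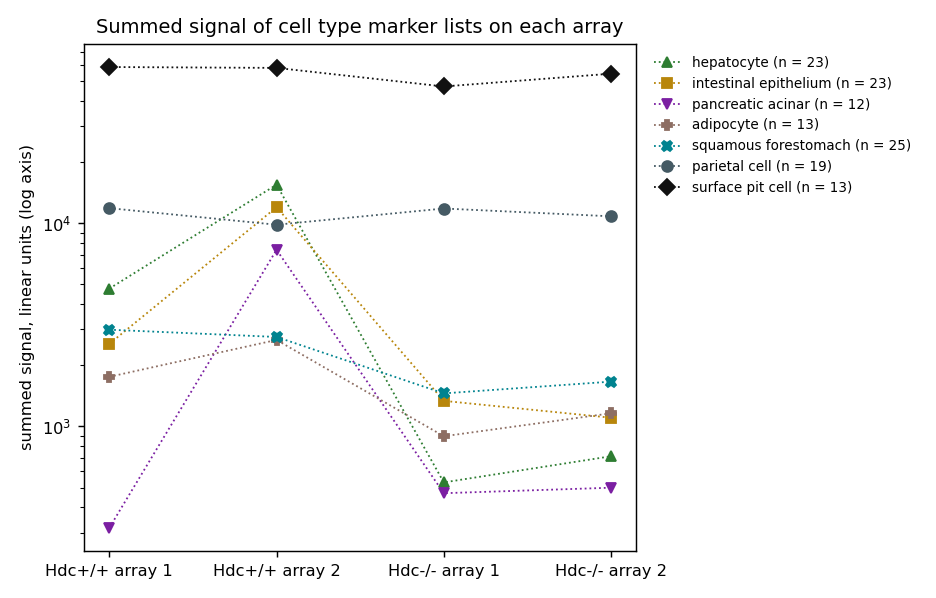
Summed linear signal (y axis, log scale) of 7 marker lists on the 4 arrays (x axis), joined by dotted lines for each list. The hepatocyte sum runs from 15489 on Hdc+/+ array 2 to 530 on Hdc-/- array 1, while the parietal and surface pit sums stay nearly level.

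A smaller set of P450 genes read lower on the Hdc-/- arrays while the Hdc+/+ arrays agreed. Of the 35 members lower at an unadjusted p under 0.05, 10 had Hdc+/+ values within 0.5 of each other, with differences from -1.75 to -0.51 and a median of -1.01. The other 25 had a median of -2.66. Genes whose Hdc+/+ values lay further apart have a larger SE and needed a larger difference to pass, so these medians cannot be compared. The 10 were Cyp2r1, Cyp2c39, Cyp2d10, Cyp8b1, Cyp4f39, Cyp2a22, Cyp2c50, Cyp2d9, Cyp39a1 and Cyp2c65, and they were singled out after their values were seen. Cyp2r1, the microsomal vitamin D 25-hydroxylase, had the smallest p of all members and is described with the vitamin genes. Cyp2c39 read 4.29 and 4.07 against 2.99 and 2.66, a difference of -1.35 (SE 0.19, n = 2 per group, limma adjusted p = 0.253). Cyp2a22 read 5.46 and 5.45 against 4.59 and 4.50, a difference of -0.91 (SE 0.16). In both genes the Hdc+/+ values were close and the Hdc-/- values lay below them. The squamous sums were close on the Hdc+/+ arrays and lower on the Hdc-/- arrays, but 1 bright gene, Sprr1a, made up most of each sum. It read 11.17 and 10.87 against 10.07 and 10.21. Over the squamous list the median of Hdc+/+ array 2 minus array 1 was 0.23. The part of forestomach tissue in these differences was not tested.

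Cyp2s1, Cyp2c65 and Cyp2j6 were bright on all arrays. Cyp2s1, an epithelial P450 that metabolises retinoic acid and eicosanoids, read 11.06 and 11.03 on the Hdc+/+ arrays and 10.49 and 10.91 on the Hdc-/- arrays, a difference of -0.34 (SE 0.20, n = 2 per group, limma adjusted p = 0.692). Cyp2c65, an arachidonic acid epoxygenase of stomach and intestine, read 9.90 and 10.01 against 9.56 and 9.31, a difference of -0.51 (SE 0.18, limma unadjusted p = 0.0286, adjusted p = 0.523). Cyp2j6 read 8.07 and 8.12 against 7.79 and 8.39, a difference of -0.01 (SE 0.24). The Hdc-/- values of Cyp2s1 and Cyp2c65 lay just below the Hdc+/+ ones, and those of Cyp2j6 lay on either side of them.

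Among enzymes induced through the aryl hydrocarbon receptor, Cyp1a1 differed by 0.27 (SE 0.26) and Cyp1b1 by -0.15 (SE 0.20), with overlapping groups in both and a sign that turned with an array left out. Cyp3a13, a Cyp3a gene of the gut, read 5.37 and 6.88 against 5.57 and 5.77, a difference of -0.46 (SE 0.48), and its sign depended on Hdc+/+ array 2, being 0.30 without it. In family 20, the orphan enzyme Cyp20a1 read 6.58 and 6.83 against 6.95 and 7.06, a difference of 0.30 (SE 0.18).

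In family 4, 4 of 15 members read lower at an unadjusted p under 0.05 and 0 higher, with a median of -0.30. Cyp4f14, which hydroxylates leukotriene B4, read 4.10 and 6.66 on the Hdc+/+ arrays and 3.46 and 2.89 on the Hdc-/- arrays, a difference of -2.21 (SE 0.80, n = 2 per group, limma adjusted p = 0.543) that was -0.93 without Hdc+/+ array 2. Cyp4f15 read 4.58 and 5.52 against 2.68 and 3.59, a difference of -1.91 (SE 0.42). Cyp4v3, a fatty acid hydroxylase, differed by -1.29 (SE 0.50) and followed Hdc+/+ array 2, with -0.51 without it. Cyp4f39, the counterpart of the human skin-barrier enzyme CYP4F22, differed by -1.12 (SE 0.23), reading 6.25 and 6.64 against 5.52 and 5.14. Cyp4f13 and Cyp4a14 differed by -0.35 (SE 0.28) and -0.30 (SE 0.32) with overlapping groups, and Cyp4a14, a target of the lipid sensor PPAR alpha, differed by 0.15 without Hdc+/+ array 2.

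Of the 6 bile acid and cholesterol enzymes, 3 read lower at an unadjusted p under 0.05 and 0 higher, with a median of -0.55. Cyp7a1, the rate-limiting enzyme of bile acid synthesis, read 3.82 and 7.25 on the Hdc+/+ arrays and 2.73 and 2.36 on the Hdc-/- arrays. Its difference was -2.99 (SE 1.04, n = 2 per group, limma adjusted p = 0.530), and it was -1.28 without Hdc+/+ array 2 and -4.71 without array 1. Cyp8b1, the sterol 12-alpha-hydroxylase that makes cholic acid, read 5.24 and 5.73 against 4.16 and 4.37, a difference of -1.22 (SE 0.22, limma adjusted p = 0.290). Cyp39a1, an oxysterol 7-alpha-hydroxylase, read 6.80 and 6.68 against 6.23 and 6.22, a difference of -0.52 (SE 0.16, limma adjusted p = 0.487), with both groups tight. Cyp27a1, the mitochondrial sterol 27-hydroxylase, and Cyp7b1, the oxysterol 7-alpha-hydroxylase of the alternative pathway, differed by -0.59 (SE 0.31) and -0.25 (SE 0.19) with overlapping groups.

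Of the 5 steroid hormone enzymes, 1 read higher at an unadjusted p under 0.05 (3.68% of all genes did) and 0 lower (4.87% of all genes did), with a median of 0.20. Cyp11a1, which cleaves the cholesterol side chain to start steroid synthesis, read 3.40 and 3.59 on the Hdc+/+ arrays and 4.71 and 4.03 on the Hdc-/- arrays, a difference of 0.88 (SE 0.26, n = 2 per group, limma adjusted p = 0.465). It was 0.54 without Hdc-/- array 1 and 1.22 without array 2, and with its probe sets averaged no member was higher at an unadjusted p under 0.05. Cyp21a1, the steroid 21-hydroxylase, differed by 0.33 (SE 0.16) without overlap, as was so for 21.5% of all genes in that direction. Cyp17a1, which turns progestins into androgens, read 3.22 and 5.13 against 3.14 and 4.06, a difference of -0.57 (SE 0.65) that was 0.38 without Hdc+/+ array 2. The list of 9 steroidogenic cell markers had 1 gene lower and 0 higher, and its sums were 268 and 358 against 229 and 238.

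Of the 6 enzymes of vitamins A and D, 1 read lower at an unadjusted p under 0.05 (4.87% of all genes did) and 0 higher, with a median of 0.10. Cyp2r1 read 4.55 and 4.77 on the Hdc+/+ arrays and 3.09 and 2.74 on the Hdc-/- arrays, a difference of -1.75 (SE 0.20, n = 2 per group, limma adjusted p = 0.221), or 3.36-fold. Its difference stayed between -1.92 and -1.57 with each array left out in turn. Cyp27b1, which makes the active vitamin D hormone, and Cyp24a1, which inactivates it, both differed by 0.01 (SE 0.27 and 0.16), with overlapping groups. The retinoic acid hydroxylases Cyp26a1 and Cyp26c1 differed by 0.44 (SE 0.22) and 0.43 (SE 0.18) without overlap, as was so for 21.5% of all genes in that direction, and Cyp26b1 by 0.18 (SE 0.20) with overlap, and none passed at an unadjusted p of 0.05.

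Genes that work with the P450s were taken from 6 lists, and 0 passed the adjusted test in any of them, against 0% of all genes lower and 0.00451% higher. Among 9 electron and haem partners, 1 read lower and 1 higher at an unadjusted p under 0.05, beside 4.87% and 3.68% of all genes, with a median of -0.15. These were Cyb5b, the cytochrome b5 of the outer mitochondrial membrane (-0.75, SE 0.20), and Hmox1, the haem oxygenase (0.74, SE 0.23). Cyb5r3, the cytochrome b5 reductase, differed by -0.47 (SE 0.24) and Pgrmc1, a haem protein that binds P450s, by -0.37 (SE 0.24). The reductase Por was not analysed here.

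Of 23 regulators of P450 genes, most of them transcription factors, 2 read lower and 0 higher at an unadjusted p under 0.05. This again stands beside 4.87% and 3.68% of all genes, and the median was -0.17. Nr1h4, the bile acid receptor FXR, averaged 6.18 ± 0.25 (SD, n = 2) against 5.01 ± 0.11 (SD, n = 2), with no overlap and a difference of -1.17 (SE 0.19, limma adjusted p = 0.279). Nr1i2, the xenobiotic receptor PXR, read 6.76 and 7.42 against 5.87 and 6.24, a difference of -1.04 (SE 0.27, limma adjusted p = 0.436). Nr1i3, the receptor CAR, and their partner Rxra differed by -0.44 (SE 0.19) and -0.32 (SE 0.17). Of the P450s with other forms of symbol, the prostacyclin synthase gene Ptgis differed by -0.47 (SE 0.18), the sterol demethylase gene Cyp51 by -0.34 (SE 0.18) and the thromboxane synthase gene Tbxas1 by -0.15 (SE 0.19), 1 of the 3 at an unadjusted p under 0.05.

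Other enzymes of drug, retinoid and bile acid handling spread as the P450s did. Of 35 other drug-metabolising enzymes, 14 read lower and 1 higher at an unadjusted p under 0.05 (median -0.58), among them the carboxylesterases Ces1c (-3.67, SE 0.57) and Ces3a (-2.23, SE 0.42), the glucuronosyltransferase Ugt2b1 (-3.00, SE 0.73) and the aldehyde dehydrogenase Aldh1a7 (-1.50, SE 0.39). Of 18 genes of retinoid and vitamin D handling, 7 read lower and 0 higher (median -0.60). Dhrs9, a retinol dehydrogenase, read 8.90 and 9.10 against 5.52 and 6.69, a difference of -2.89 (SE 0.39, limma adjusted p = 0.247). Its Hdc+/+ arrays agreed, whereas Rbp4, the serum retinol carrier made by the liver, was higher on Hdc+/+ array 2 (6.30 and 7.46 against 4.82 and 5.25). The retinol dehydrogenase Rdh7 and the retinoic acid synthase Aldh1a2 differed by -1.79 (SE 0.41) and -0.92 (SE 0.22). Of 16 bile acid and cholesterol partners, 6 read lower and 1 higher (median -0.37), among them Slc10a1, the bile acid uptake carrier of hepatocytes (-3.24, SE 0.63), with the reductase Akr1d1 at -1.90 (SE 0.53) and the co-receptor gene Klb at -1.16 (SE 0.27). Several of these genes are known chiefly from hepatocytes, whose 23 markers had a median of -3.35, and the part of liver tissue in these differences was not tested.

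**Figure D5:**
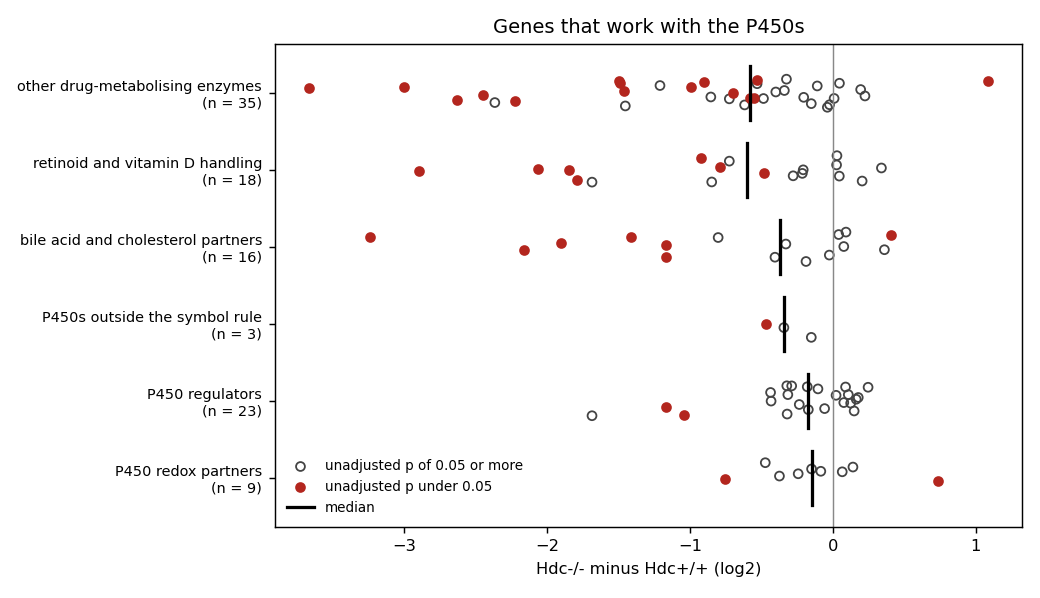
Difference of each gene (x axis, Hdc-/- minus Hdc+/+, log2) in 6 lists of genes that work with or beside the P450s (y axis), with filled points at an unadjusted limma p under 0.05 and a bar at each list's median. The drug-metabolising enzymes reach furthest to the left, with Ces1c at -3.67, and the filled points among the regulators are Nr1h4 at -1.17 and Nr1i2 at -1.04.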

How the data were processed

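The authors deposited log2 values, 1 per probe set and array. The submitters' processing notes list Affymetrix Power Tools, oligo and RMA, with neither version nor order. The genome build behind the probe sets is not stated in the labels. Of 41345 probe sets, 23521 had 1 gene symbol and gave 22180 genes. All 90 P450 genes matched the GRCm38.p6 gene table. Precision is limited by there being 4 arrays. No background values were used, so no gene was called absent and folds of dim genes may be too small.

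Genotypes were compared with limma 3.58.1 in R 4.3.3 (lmFit, eBayes, no covariate), with Benjamini-Hochberg adjustment over all 22180 genes and a threshold of 0.05, and the fit was tested on simulated data. The members, role groups, gene lists and naming rule were chosen with earlier results of these data known. The text names members past the threshold, in each role group those with the largest differences (up to 8 in families 1 to 3, 4 in family 4, 3 elsewhere) and highest means (up to 4, 2 and 2), a fixed set of textbook members, and in each partner list up to 4 genes with the smallest p. The alternatives tried were filters on dim genes, averaged probe sets, other normalizations, another prior, a replicate block, every probe set, other call rules and leaving out each array. When an array was left out, its lone partner was taken to vary like the other group.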

Additional observations from a re-analysis of the deposited data

Results flagged for a closer look

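Pseudogene probe sets lie outside the 90 members, and 3 of the 4 read higher on both Hdc-/- arrays than on both Hdc+/+ arrays, as 21.5% of all genes did. These were Cyp2d37-ps (0.24, SE 0.19), Cyp4f41-ps (0.33, SE 0.20) and Cyp2c53-ps (0.25, SE 0.20). The other, Cyp4b1-ps2, read lower on both Hdc-/- arrays (-0.51, SE 0.24), as 17.6% of all genes did. By limma over all probe sets, none of the 4 passed (adjusted p from 0.712 to 0.835).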

How the results depend on the processing

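The count of 0 members called at the adjusted threshold held under the filters, normalizations, averaged probe sets, the other prior and every probe set. Same-numbered arrays did not deviate together (r = -0.119 across all genes and 0.0767 across the P450 genes, 2 pairs), so the numbers were not taken as pairs. The count was 1 lower with the replicate block (Cyp2e1, limma adjusted p = 0.0242) and 0 with a crossed block, added after seeing the data. Leaving out arrays gave 0 to 16 lower and, for the partner lists, 0 to 11 lower, both highest without Hdc+/+ array 1. Other call rules gave 35 lower and 1 higher (unadjusted p) or 30 lower (with a log2 difference of at least 1). At an unadjusted p, the 35 lower became 18 of the 33 members left without the dimmest 50% of genes, where the median was -1.12 and 0 were higher, and ranged from 21 to 41 with an array left out. The 1 higher became 0 with averaged probe sets, 2 with quantile or cyclic loess normalization, centred arrays or the crossed block, and 0 to 4 with an array left out. The median ranged from -0.60 to -0.29 with an array left out. Counting the 3 symbols that end in a letter moved no count past 1.5 times.

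The direction of some differences reversed. With cyclic loess, Cyp24a1, Cyp27b1 and Hdc differed by -0.00616, -0.00222 and -0.0135. With an array left out, the ranges were -0.0335 to 0.0600 (Cyp24a1), -0.28 to 0.31 (Cyp27b1), -0.0136 to 0.38 (Cyp26b1), -0.31 to 0.29 (Cyp2j6), -0.0560 to 0.59 (Cyp1a1), -0.34 to 0.0509 (Cyp1b1), -1.21 to 0.30 (Cyp3a13), -0.76 to 0.15 (Cyp4a14), -1.53 to 0.38 (Cyp17a1), -0.14 to 0.15 (Hdc) and -0.32 to 0.0231 (Tbxas1). Of the members named after their values were seen, Cyp2c40 turned to 0.24 without Hdc+/+ array 2, and Cyp2d34 and Cyp2b10 to -0.44 and 0.36 without Hdc-/- array 1. Cyp2b23 ranged from -0.58 to 0.47 and Cyp4a31 from -0.38 to 0.13 with an array left out. Cyp4a12a, outside the symbol rule, turned to -0.06 without Hdc+/+ array 1. The cause was not tested.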

Other observations

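Some of the P450 genes known to differ by sex in mouse liver were looked at after their values were seen, so this is not a full list. Cyp2b13 and Cyp3a44, which with Cyp2b9 are known mainly from female mouse liver, read 4.32 and 4.99 against 2.59 and 3.28 (difference -1.72, SE 0.33) and 4.17 and 6.03 against 3.01 and 3.58 (difference -1.80, SE 0.60). Cyp2d9, known mainly from male mouse liver, read 2.68 and 2.54 against 2.05 and 1.89 (difference -0.64, SE 0.17). Cyp4a12a, also known from male liver, has a symbol outside the rule and read 3.58 and 3.97 against 3.89 and 3.93 (difference 0.14, SE 0.20). Its relative Cyp4a12b, also outside the rule, read 5.06 and 4.64 against 4.46 and 3.93 (difference -0.65, SE 0.25), without overlap. None passed over all genes by limma (adjusted p from 0.295 to 0.896).

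Probe sets with several P450 symbols also lay outside the 90 members, and their differences ran from small to large. One of the probe sets for Cyp3a41a, Cyp3a41b, Cyp3a11 and Cyp3a44 differed by -5.91 (SE 0.76), and a probe set for Cyp4a10 and Cyp4a31 read 4.24 and 6.93 against 2.15 and 1.84, a difference of -3.59 (SE 0.87). A probe set for Cyp4a32 and Cyp4a10 differed by -0.37 (SE 0.27). The probe set of Cyp4a31 alone differed by -0.12. Cyp2d34 was high on 1 array, reading 5.14 and 5.64 on the Hdc+/+ arrays and 6.99 and 4.95 on Hdc-/- arrays 1 and 2. Cyp2b10, a phenobarbital-inducible P450, was also uneven between the Hdc-/- arrays, at 4.94 and 6.70 against 5.89 and 6.77.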
